A study of Mus musculus with 9 samples.

Results

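The genes that make dopamine, supply the cofactor for making it and carry it across membranes were followed in the mouse substantia nigra after long treatment with methylphenidate (MPH). The 9 genes were taken by name, as every probe set that the annotation of the array assigns to Th, Ddc, Gch1, Slc6a3, Slc18a2, Slc10a4, Qdpr, Pts or Spr. They are covered by 11 of the 45037 probe sets tested, with 2 each for Ddc and Gch1, and all 11 are accounted for. The probe set of Slc18a2 also names a second gene, Pdzd8, and its values could hold signal of both.

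Dopamine is made from tyrosine in consecutive steps. Tyrosine hydroxylase, the product of Th, makes L-DOPA and is the rate-limiting enzyme, and aromatic L-amino acid decarboxylase, the product of Ddc, turns L-DOPA into dopamine. Tyrosine hydroxylase needs the cofactor tetrahydrobiopterin (BH4), which is made from GTP by the products of Gch1, Pts and Spr in turn and is regenerated after use by that of Qdpr. The vesicular monoamine transporter VMAT2, encoded by Slc18a2, loads dopamine into synaptic vesicles, and the dopamine transporter DAT, encoded by Slc6a3, returns released dopamine to the neuron and is a target that MPH blocks. Slc10a4 encodes an orphan member of the bile acid transporter family found on synaptic vesicles of monoamine and acetylcholine neurons.

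Swiss Webster mice received intraperitoneal saline, MPH at 1 mg/kg or MPH at 10 mg/kg once daily on a school-day schedule over several months, starting at about a month of age, and were killed after a drug-free week. All groups share the strain, the injections and the drug-free week. RNA of the dissected substantia nigra, a bulk tissue of neurons and glia, was measured on Affymetrix HT MG-430 PM arrays, 3 for each group and 9 in all. The labels do not say whether an array holds 1 animal or a pool, and p-values measure the spread between these arrays, which may in part be technical. In bulk tissue, fewer cells of a type and less RNA per cell cannot be told apart.

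Values are on the log2 scale of Robust Multichip Average, the summary the authors used, and each array's median was 4.49 to 4.53. Among 20 control probe sets for sequences that mouse RNA lacks, the median was 3.00 and the highest 3.58, and values near these cannot be told from background. The doses carry a doubt that precedes every result. Matching the study's tables of changed genes to the deposited arrays, the entries listed for 1 mg/kg equalled the differences of arrays with a 10 mg/kg label in 76 of 76 matched entries and those of arrays with a 1 mg/kg label in 0. For the entries listed for 10 mg/kg the match was to the 1 mg/kg label, in 36 of 36 entries against 0 (tolerance 0.0005). Doses are given here as the deposit labels them, so that the 1 mg/kg and 10 mg/kg arrays are those with these labels, and the mean of both MPH groups, which does not depend on the doses, was compared with saline as well. Both dose comparisons use the same 3 saline arrays and are not independent of each other.

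The labelled tissue was checked against genes that define its neurons and neighbours. Of 12 further dopamine neuron genes, 10 had a mean above 4, among them Drd2 (the D2 autoreceptor), Ret (the GDNF co-receptor) and Chrna6 (a nicotinic receptor subunit), while the transcription factor genes Pitx3 and Lmx1b lay under 4. Of 3 noradrenaline neuron genes measured, Slc6a2 and Phox2a lay under 4 as well, while Dbh had a mean of 4.54. Dbh averaged 4.48 in saline, 4.38 in the 1 mg/kg arrays and 4.75 in the 10 mg/kg arrays. Genes of neighbouring regions varied between arrays. The mean over 5 genes of cortex or hippocampus was highest in 10 mg/kg replicate 1, at 7.51, against 6.26 to 6.76 in the other arrays. This came from Icam5, Itpka and Neurod6, whereas Cux2 (8.07) and Rasgrf2 (10.76) were at their lowest in that array. Genes of the thalamus were lowest in saline replicate 2, at 6.72. The differences of Slc6a3 and Qdpr from saline are also given without this pair of arrays.

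Across the 9 genes, 6 were lower in every MPH array than in every saline array, namely Th, Ddc, Gch1, Slc6a3, Slc18a2 and Slc10a4. By comparison, 5.8% of all probe sets tested had all 6 MPH arrays below all 3 saline arrays. Gch1 and Th differed most, with mean log2 fold changes of −0.64 ± 0.09 and −0.61 ± 0.08 (SE, 6 MPH arrays against 3 saline arrays), and Slc6a3 least of the 6, with −0.25 ± 0.08. Qdpr overlapped between the groups, and Pts and Spr, the enzymes that complete BH4 synthesis, had differences of −0.0450 and −0.0412 over both MPH groups. In limma with replicate numbers as blocks, none of the 11 probe sets passed an adjusted p of 0.05, and the background is 0% of all probe sets in each comparison with saline and between the doses.

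**Figure D1:**
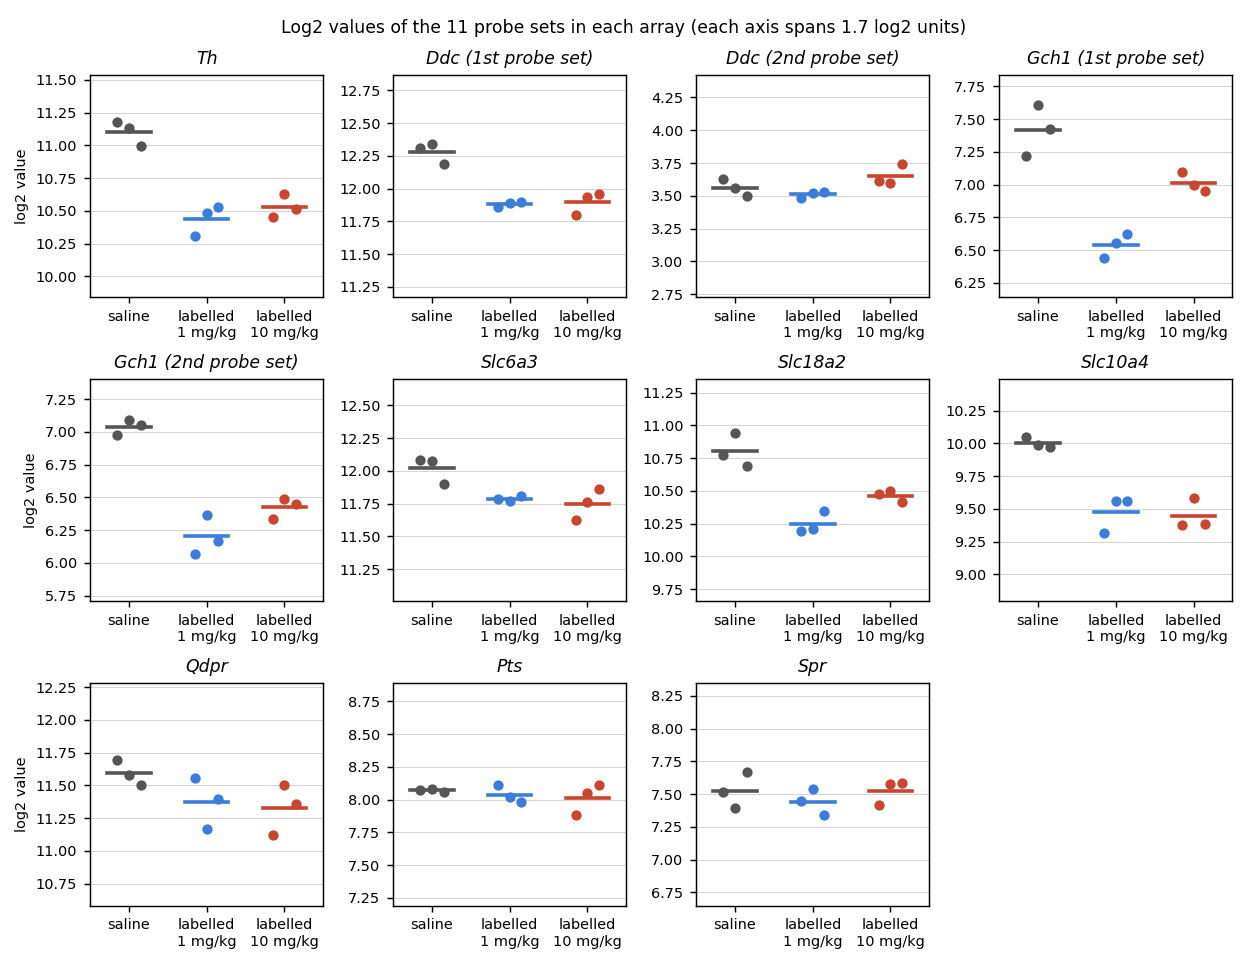
Log2 values of the 11 probe sets in each array, with saline, 1 mg/kg arrays and 10 mg/kg arrays from left to right, points for arrays and bars for group means. The MPH arrays of Th, Gch1, Ddc, Slc6a3, Slc18a2 and Slc10a4 all lie below the saline arrays, while Pts and Spr lie at the same height in all groups and the second Ddc probe set lies near the background.

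The first enzyme of the pathway was lower throughout. Th was at 11.18, 11.13 and 10.99 in the saline arrays, at 10.31, 10.48 and 10.53 in the 1 mg/kg arrays, and at 10.45, 10.63 and 10.51 in the 10 mg/kg arrays. The highest MPH array lay well below the lowest saline array, and the 2 MPH groups overlapped each other. Th averaged 10.44 ± 0.12 in the 1 mg/kg arrays and 11.10 ± 0.10 in saline arrays (SD, n = 3 each), a log2 fold change of −0.66 ± 0.09 (SE) or 63.3% of the saline level, with an adjusted p of 0.341 in limma with the block and 0.0394 without it. In the 10 mg/kg arrays it stood at 67.5% of saline, a log2 fold change of −0.57 ± 0.09, with adjusted p-values of 0.329 with the block and 0.0415 without it in limma. The deposited values vary little by replicate number (median F ratio 0.073, against 0.828 for the F distribution). If a batch correction did this, p-values without the block are too small for every gene, since that fit counts degrees of freedom already used. Over both MPH groups the exact two-sided permutation test gave p = 0.0238, the smallest p that 6 arrays against 3 allow. This p is unadjusted and only restates that MPH and saline arrays did not overlap in this direction, as in 5.8% of all probe sets tested. The same holds for each other member gene with this p. With the saline label exchanged only within replicate numbers, the permutation test gave p = 0.0741, again the smallest possible.

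The decarboxylase differed by less. Its brighter probe set was at 12.31, 12.34 and 12.19 in the saline arrays, at 11.86, 11.89 and 11.90 in the 1 mg/kg arrays, and at 11.80, 11.94 and 11.96 in the 10 mg/kg arrays. All 6 MPH arrays lay within a narrow band below saline. The log2 fold change of Ddc over both MPH groups was −0.39 ± 0.07 (SE), which leaves 76.5% of the saline level, with an adjusted p of 0.302 in limma with the block and 0.0341 without it. The exact permutation p was 0.0238, and 0.0741 within replicate numbers. The second Ddc probe set lay between 3.48 and 3.75 in all arrays, within or close to the range of the background controls, and its difference of 0.02 was not read as one of the gene.

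Gch1 encodes GTP cyclohydrolase 1, the rate-limiting enzyme of BH4 synthesis, and both of its probe sets were lower. The brighter one was at 7.22, 7.61 and 7.42 in the saline arrays, at 6.44, 6.55 and 6.62 in the 1 mg/kg arrays, and at 7.10, 6.99 and 6.95 in the 10 mg/kg arrays. The other was at 6.97, 7.09 and 7.05 in the saline arrays, at 6.07, 6.37 and 6.17 in the 1 mg/kg arrays, and at 6.33, 6.49 and 6.45 in the 10 mg/kg arrays. Neither had an MPH array that reached the saline arrays. For the brighter probe set the log2 fold change was −0.88 ± 0.10 in the 1 mg/kg arrays and −0.40 ± 0.10 in the 10 mg/kg arrays (SE, against the same saline arrays). The second gave −0.84 ± 0.07 and −0.61 ± 0.07 for the same labels. By its p-value the second probe set ranked 1 of 45037 in the 1 mg/kg arrays and 2 over both MPH groups, where limma gave an adjusted p of 0.106 with the block and 0.0175 without it.

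The next enzymes of BH4 synthesis had small differences. Pts, which encodes the second enzyme of the route (6-pyruvoyl-tetrahydropterin synthase), was at 8.07, 8.08 and 8.06 in the saline arrays, at 8.11, 8.02 and 7.98 in the 1 mg/kg arrays, and at 7.88, 8.05 and 8.11 in the 10 mg/kg arrays. Spr, which encodes sepiapterin reductase, was at 7.52, 7.39 and 7.66 in the saline arrays, at 7.44, 7.54 and 7.34 in the 1 mg/kg arrays, and at 7.42, 7.58 and 7.58 in the 10 mg/kg arrays. MPH and saline arrays overlapped for both genes. Over both MPH groups the 95% interval of the log2 fold change was −0.22 to 0.13 for Pts and −0.24 to 0.16 for Spr, so for these genes a difference as large as the estimate for Gch1 lies outside the interval. The exact permutation p was 0.429 for Pts and 0.619 for Spr.

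Qdpr, which encodes the dihydropteridine reductase that regenerates BH4 and is also abundant in oligodendrocytes, stood between these patterns. It was at 11.70, 11.58 and 11.51 in the saline arrays, at 11.56, 11.17 and 11.40 in the 1 mg/kg arrays, and at 11.12, 11.51 and 11.36 in the 10 mg/kg arrays. In the 1 mg/kg group replicate 1 lay within the saline range, and 10 mg/kg replicate 2 just below it. The log2 fold change over both MPH groups was −0.24 ± 0.12 (SE, −0.27 ± 0.14 in the 10 mg/kg arrays), with a 95% interval of −0.52 to 0.04, an adjusted p of 0.495 in limma with the block, and an exact permutation p of 0.0476. Within replicate numbers the permutation p was 0.0741. Without 10 mg/kg replicate 1 and saline replicate 2 together, the difference of Qdpr was −0.03 in the 10 mg/kg arrays and −0.10 over both. Of 5 oligodendrocyte genes measured, 5 were lower over both MPH groups, where 51.8% of all probe sets were, with a median of −0.20. Of these, 2 were lower at an unadjusted p of 0.05, where 6.51% of all probe sets were. The part of oligodendrocyte genes in the result for Qdpr was not tested.

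The membrane and vesicle transporters were lower in all MPH arrays. Slc6a3 was at 12.09, 12.08 and 11.90 in the saline arrays, at 11.78, 11.77 and 11.81 in the 1 mg/kg arrays, and at 11.63, 11.76 and 11.86 in the 10 mg/kg arrays. The groups did not overlap, but the highest MPH array and the lowest saline array were nearly equal. The log2 fold change was −0.23 ± 0.09 in the 1 mg/kg arrays, −0.27 ± 0.09 in the 10 mg/kg arrays and −0.25 ± 0.08 over both (SE), or 84.1% of saline. The adjusted p over both was 0.366 in limma with the block and 0.0974 without it. Without 10 mg/kg replicate 1 and saline replicate 2 together, the difference of Slc6a3 was −0.13 in the 10 mg/kg arrays and −0.15 over both.

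Slc18a2 was at 10.78, 10.94 and 10.69 in the saline arrays, at 10.19, 10.21 and 10.35 in the 1 mg/kg arrays, and at 10.47, 10.50 and 10.41 in the 10 mg/kg arrays. The 3 groups did not overlap one another, with the 10 mg/kg arrays in the middle. Against saline the log2 fold change was −0.55 ± 0.09 for the 1 mg/kg arrays and −0.34 ± 0.09 for the 10 mg/kg arrays (SE), and over both it gave an adjusted p of 0.302 in limma with the block and 0.0355 without it. Slc10a4 was at 10.05, 9.99 and 9.97 in the saline arrays, at 9.32, 9.56 and 9.56 in the 1 mg/kg arrays, and at 9.38, 9.59 and 9.38 in the 10 mg/kg arrays. This was a wide gap between MPH and saline with no order between the doses. Its log2 fold change over both MPH groups was −0.54 ± 0.08 (SE), 68.8% of saline, with an adjusted p of 0.228 in limma with the block and 0.0326 without it. For Slc6a3, Slc18a2 and Slc10a4 the exact permutation p over both MPH groups was 0.0238 each, and 0.0741 each within replicate numbers.

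Counted together over the 9 genes, with the brighter probe set standing for Ddc and Gch1, the fold change was negative for 9 genes in the 1 mg/kg arrays, for 8 in the 10 mg/kg arrays and for 9 over both MPH groups. The median was −0.40, −0.34 and −0.39 in these comparisons, against medians between −0.00753 and −0.00463 over all probe sets tested. Of all probe sets, 51.4%, 52.3% and 51.8% had a negative fold change. Pts and Spr were among the negative genes over both MPH groups with values close to 0, −0.0450 and −0.0412. At an unadjusted p of 0.05 in limma with the block, 7 of the 11 probe sets were lower and 0 higher in each comparison. In the table as a whole, 5.77% of probe sets were lower at that p in the 1 mg/kg arrays, 5.51% in the 10 mg/kg arrays and 6.51% over both. In the same order, 4.53%, 4.08% and 4.72% were higher. Without the block, 4, 3 and 6 of the 11 probe sets, which stand for 3, 2 and 5 of the 9 genes by their brighter probe set, passed an adjusted p of 0.05, where 0.0844%, 0.153% and 0.286% of all probe sets were called lower. The study's methods name a batch of the 3 replicates, for which the block is assumed to stand. In this fit Th, Ddc, both Gch1 probe sets, Slc18a2 and Slc10a4 were called over both MPH groups only without the block. Slc6a3, Qdpr, Pts and Spr were called neither with it nor without it. With an intensity trend and robust variances in limma, Th passed over both MPH groups with the block kept (adjusted p = 0.0413).

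**Figure D2:**
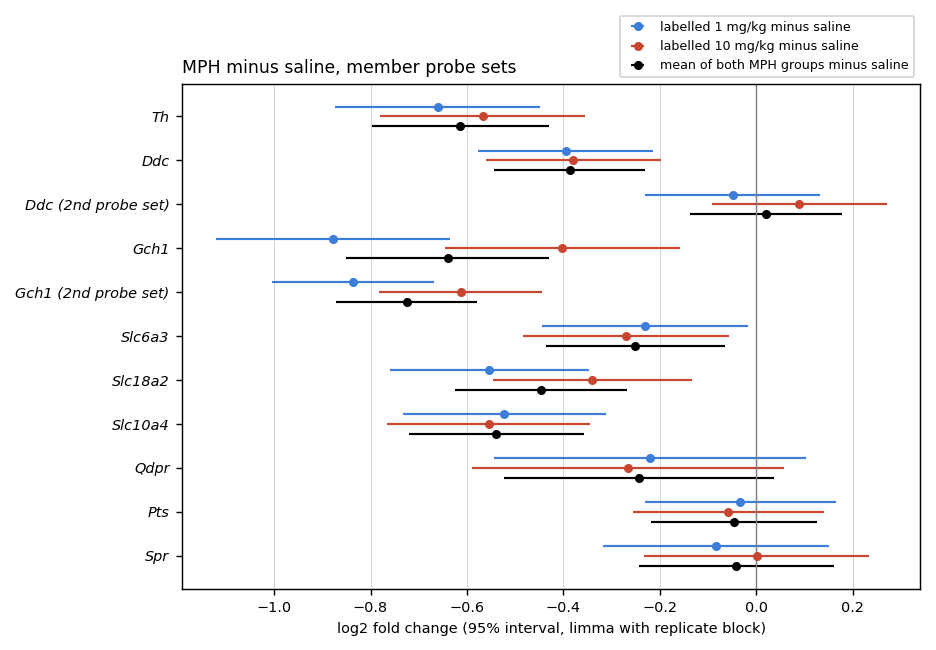
Log2 fold changes of the 11 probe sets (horizontal axis) with 95% intervals from limma with the replicate block, for the 1 mg/kg arrays, the 10 mg/kg arrays and the mean of both, each minus saline. The intervals of Th, Ddc, both Gch1 probe sets, Slc6a3, Slc18a2 and Slc10a4 lie below 0, and those of Qdpr, Pts, Spr and the second Ddc probe set include it.

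**Figure D3:**
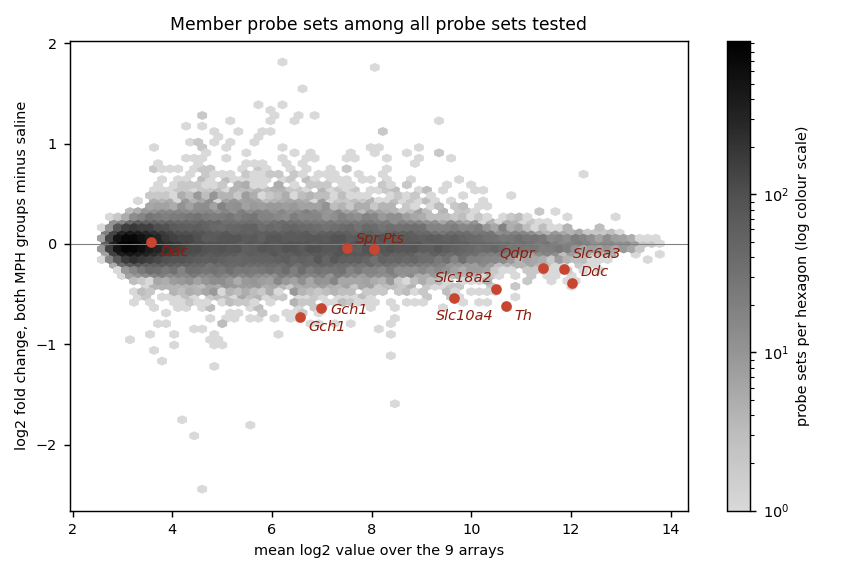
Log2 fold change of both MPH groups minus saline (vertical axis) against the mean log2 value over the 9 arrays (horizontal axis) for all 45037 probe sets, as a density in grey, with the 11 member probe sets in red. Th, Gch1, Slc10a4, Slc18a2 and Ddc lie at the lower edge of the density, and Pts and Spr lie in its middle.

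Between the doses, Gch1 and Slc18a2 had the largest differences of the 9 genes. The 10 mg/kg arrays exceeded the 1 mg/kg arrays by 0.48 in the brighter Gch1 probe set (95% interval 0.23 to 0.72), by 0.22 in the other (0.06 to 0.39) and by 0.21 in Slc18a2 (0.01 to 0.42). These 3 probe sets were higher at an unadjusted p of 0.05 in limma, where 3% of all probe sets were, and 0 members were lower. After adjustment over all probe sets the p was 0.774 for each. The intervals of the other 7 genes included 0, with Th at 0.09 (−0.12 to 0.31) and Slc6a3 at −0.04 (−0.25 to 0.18). The sign of these dose differences depends on the dose labels, which the study's tables contradict.

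The difference of Slc6a3 and other members was also taken within each array, which removes any scaling of the array. The 5 partners were the other genes with all MPH arrays below all saline arrays, chosen with earlier results known, and Slc6a3 had the smallest difference of these 6. A positive shift was therefore set by the choice, and the shifts are a description with no test. The level of such a difference has no meaning, since probe sets bind unequally. Slc6a3 minus Th was between 1.13 and 1.48 in the MPH arrays and between 0.91 and 0.95 in the saline arrays, a shift of 0.36 with no overlap. Slc6a3 minus Slc10a4, at 2.18 to 2.48 in MPH arrays and 1.93 to 2.09 in saline arrays, shifted by 0.29, also without overlap. The shift was smaller for Slc6a3 minus Ddc, at −0.17 to −0.08 in MPH arrays and −0.29 to −0.22 in saline arrays, at 0.14.

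For Gch1 and Slc18a2 the groups overlapped. Slc6a3 minus Gch1 shifted by 0.39, with means of 5.25 in the 1 mg/kg arrays and 4.74 in the 10 mg/kg arrays, against 4.60 in saline, and Slc6a3 minus Slc18a2 shifted by 0.20. Against the 3 remaining members the shift was −0.00747 for Qdpr, −0.21 for Pts and −0.21 for Spr.

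**Figure D4:**
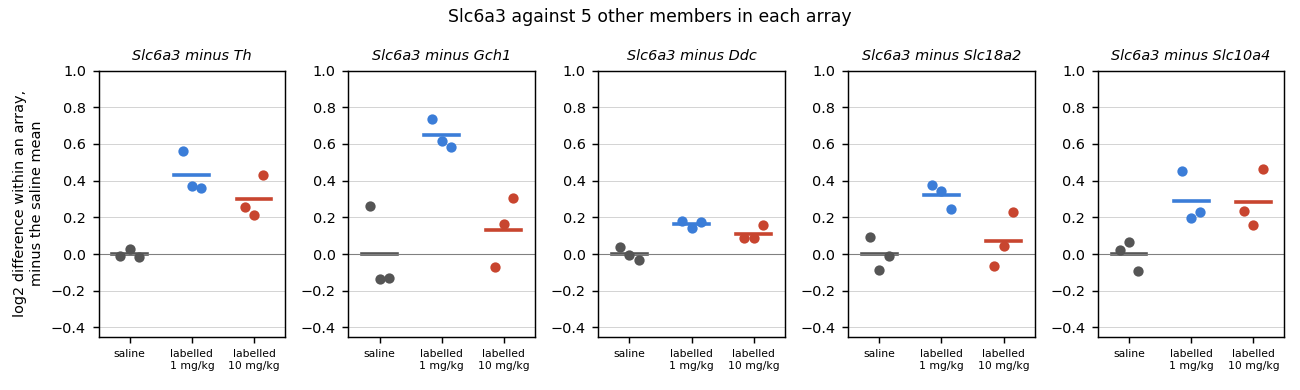
Log2 difference of Slc6a3 and 5 other genes within each array (vertical axis, minus the saline mean), for saline, 1 mg/kg arrays and 10 mg/kg arrays, with points for arrays and bars for group means. For Th, Ddc and Slc10a4 all MPH points lie above all saline points, by 0.36, 0.14 and 0.29 on average, and for Gch1 and Slc18a2 they overlap.

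Of 4 further genes that act on GTP cyclohydrolase 1 or BH4, 2 were measured, Pcbd1 and Gchfr. Both were lower at an unadjusted p of 0.05 over both MPH groups, where 6.51% of all probe sets were, and 0 passed adjustment. Pcbd1, whose product takes part in regenerating BH4, was at 9.48, 9.64 and 9.59 in the saline arrays, at 9.26, 9.32 and 9.35 in the 1 mg/kg arrays, and at 9.32, 9.33 and 9.25 in the 10 mg/kg arrays. It did not overlap between MPH and saline, with a log2 fold change of −0.26 ± 0.06 (SE, limma adjusted p = 0.331). Gchfr, whose product binds GTP cyclohydrolase 1 and mediates its feedback inhibition, was at 4.06, 5.12 and 4.82 in the saline arrays, at 3.92, 3.66 and 3.79 in the 1 mg/kg arrays, and at 4.09, 3.63 and 3.51 in the 10 mg/kg arrays. Its fold change of −0.90 ± 0.24 (SE, limma adjusted p = 0.336) came from 2 of the 3 saline arrays, and saline replicate 1 lay within the MPH range.

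Of 5 genes of dopamine breakdown, 3 were measured. Over both MPH groups 1 of them, Aldh1a1, was lower at an unadjusted p of 0.05, where 6.51% of all probe sets were, and Maob and Aldh2 did not reach it. Aldh1a1, an aldehyde dehydrogenase that oxidizes the aldehyde formed from dopamine and marks a subset of nigral dopamine neurons, was at 12.24, 12.38 and 12.13 in the saline arrays, at 11.93, 11.77 and 11.81 in the 1 mg/kg arrays, and at 11.75, 11.80 and 11.89 in the 10 mg/kg arrays. It resembled Ddc in size, with −0.43 ± 0.08 over both MPH groups (SE), an adjusted p of 0.307 in limma with the block and 0.0406 without it. Maob, one of the enzymes that oxidize dopamine, had −0.28 ± 0.14 and overlapped between the groups, and Aldh2 had −0.13 ± 0.06 (SE, both MPH groups). Among 9 measured genes of other vesicular transporters and vesicle proteins, such as Sv2a, Syt1 and Slc17a6, the median was −0.04 over both MPH groups. At an unadjusted p of 0.05, 0 were lower and 0 higher, where 6.51% and 4.72% of all probe sets were. For so few genes these counts lie near those shares, and Slc17a7 and Slc18a3 had means under 4.

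Genes of serotonin neurons, which also express Ddc, Gch1, Slc18a2 and Slc10a4, were unevenly present. Tph2, the enzyme that starts serotonin synthesis in the brain, was at 4.24, 7.47 and 6.96 in the saline arrays, at 3.88, 3.20 and 3.47 in the 1 mg/kg arrays, and at 5.21, 3.61 and 3.32 in the 10 mg/kg arrays. Over Tph2, Slc6a4 and Htr1a the mean was 3.76 to 4.23 in the 1 mg/kg arrays, 3.98 to 5.22 in the 10 mg/kg arrays and 4.58 to 6.83 in saline. Over both MPH groups 3 of 3 were lower at an unadjusted p of 0.05, where 6.51% of all probe sets were, with a median of −1.75. Adjusted p-values in limma with the block were 0.349 (Tph2), 0.337 (Slc6a4) and 0.432 (Htr1a). Most MPH values of Tph2 and Slc6a4 lay near the background, whose highest control was 3.58, so the size of their fold changes is uncertain. Saline replicate 1, with little Tph2, had the highest Th of all arrays and the highest Slc6a3 and Slc10a4. It had the lowest Gch1 of the saline arrays in both probe sets. The array 10 mg/kg replicate 1, with the most Tph2 of the MPH arrays, had the highest MPH value of the brighter Gch1 probe set. In the other Gch1 probe set, however, it was the lowest of the 10 mg/kg arrays, at 6.33. For Ddc it was the lowest of all arrays, at 11.80. The part of serotonin neurons in the result for Gch1, Ddc and Slc18a2 was not tested.

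**Figure D5:**
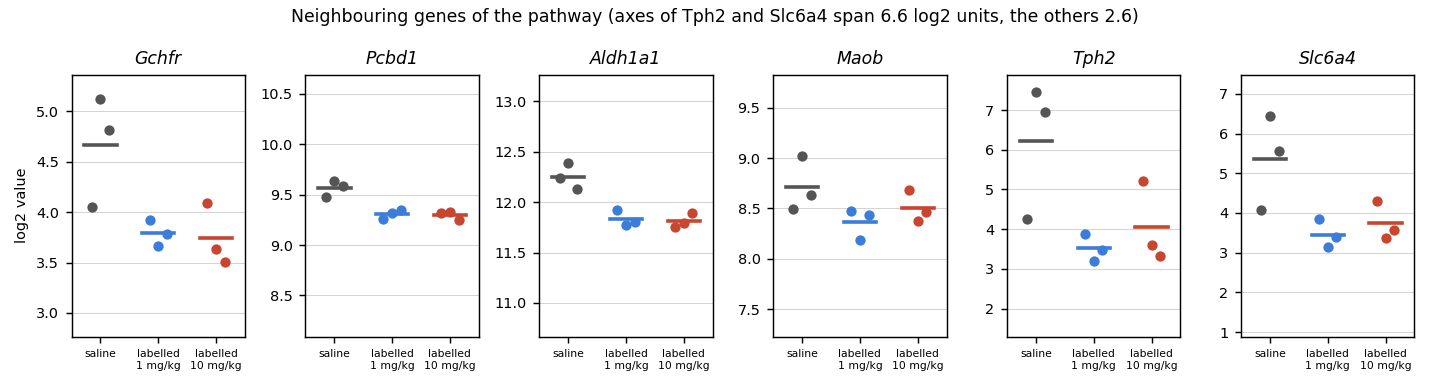
Log2 values of 6 neighbouring genes in each array, with saline, 1 mg/kg arrays and 10 mg/kg arrays from left to right, points for arrays and bars for group means. Pcbd1 and Aldh1a1 are lower in every MPH array, whereas Tph2, Slc6a4 and Gchfr differ mainly through 2 saline arrays, with saline replicate 1 near the MPH arrays.

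Other dopamine neuron genes were lower as well. Their list, like the others here, was chosen with earlier results of these data known, so its counts are a description. Of 12, 10 were lower over both MPH groups at an unadjusted p of 0.05, where 6.51% of all probe sets were, and 0 higher, with a median log2 fold change of −0.53, against −0.39 for the 9 genes. Their mean per array was 6.12 to 6.24 in the 1 mg/kg arrays, 6.28 to 6.31 in the 10 mg/kg arrays and 6.68 to 6.92 in saline. Genes of the thalamus ran the other way in part, at 8.31 to 8.66 in the 1 mg/kg arrays, 7.18 to 8.24 in the 10 mg/kg arrays and 6.72 to 7.95 in saline. The 3′ minus 5′ difference of the Actb control probe sets, a sign of RNA integrity and labelling, was 1.03 to 1.19 in MPH arrays and 0.88 to 0.93 in saline arrays, without overlap, while that of Gapdh overlapped between the groups (0.22 to 0.41 in MPH arrays and 0.23 to 0.39 in saline arrays). Marker genes of other cells had medians of 0.07 (GABA neurons), −0.20 (oligodendrocytes), −0.01 (astrocytes), −0.11 (microglia) and 0.07 (endothelium) over both MPH groups. Single genes departed from these medians, with Mag at −0.45 and Cnp at −0.49 (oligodendrocytes), and Cldn5 at 0.30 (endothelium). The part of dissection and RNA integrity in the lower values of the dopamine genes was not tested.

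The profile of Th over the 9 arrays was set beside those of 12078 single-gene probe sets with a mean of 6 or more, by the root mean square difference of values centred on each probe set's own mean. The 5 nearest were Chrna6 (0.0687), Epb41l1 (0.101), Sncg (0.109), Nol3 (0.113) and Acad9 (0.120), where Th itself varied by 0.304. Chrna6 and Sncg, which encodes gamma-synuclein, are also among the dopamine neuron genes listed. Among the members, Slc10a4 was nearest to Th (0.0742), followed by Slc18a2 (0.119) and Ddc (0.128), while Slc6a3 (0.195) and Gch1 (0.206) were farther away and Pts (0.293) and Spr (0.301) as far as a flat profile. The brighter Gch1 probe set was nearest to Gng4 (0.134), a G protein gamma subunit, Sncg (0.156), a second Gng4 probe set (0.160), Zfp14 (0.161) and the netrin receptor gene Dcc (0.161). These are descriptions over the same 9 arrays, and carry no test.

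Promoters were searched because transcription of Th is known to respond to cAMP through an element beside its start, and to NR4A2 (Nurr1), the nuclear receptor of dopamine neurons. Those of Th, Slc18a2, Ddc (first start) and Slc6a3 are shown. Those of Gch1 and Slc10a4, also among the lower genes, were searched but are not printed. The 250 bases before each start in RefSeq (GRCm38.p6) were searched on both strands. The letters of the cAMP response element, TGACGTCA, are held by 1.55% of 32851 mouse promoters of that length, those of the NR4A monomer element, AAAGGTCA, by 1.34%, and TATAAA, the core of a TATA box, by 12.4%. The 100 bases before the start are printed 5′ to 3′ on the strand of the gene, with motif matches in capitals. For Slc18a2 the first 4 transcribed bases are added, since its match spans the start, which was seen only after the search (1.79% of promoters hold the element when 50 bases after the start are included).
Th, chr7:142899996-142900095, minus strand: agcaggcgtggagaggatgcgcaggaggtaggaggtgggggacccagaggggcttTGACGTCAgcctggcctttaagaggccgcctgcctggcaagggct
Slc18a2, chr19:59260778-59260881, plus strand: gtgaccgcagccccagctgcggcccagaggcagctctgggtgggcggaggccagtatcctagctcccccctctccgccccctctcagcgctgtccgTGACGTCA
Ddc, first of 2 starts, chr11:11898145-11898244, minus strand: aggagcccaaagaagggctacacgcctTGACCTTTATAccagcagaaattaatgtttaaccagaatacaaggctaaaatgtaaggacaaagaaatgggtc
Slc6a3, chr13:73536647-73536746, plus strand: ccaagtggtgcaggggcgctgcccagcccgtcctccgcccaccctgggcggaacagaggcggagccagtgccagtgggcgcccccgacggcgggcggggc

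The full cAMP response element lay 45 to 38 bases before the start of Th. In Ddc the capitals hold an NR4A element on the opposite strand that overlaps a TATA box on that strand. Gch1 held a TATA box on the opposite strand farther upstream, and Slc6a3, Slc10a4, Qdpr, Pts and Spr held none of the 3 motifs in the 250 bases. Both genes with a cAMP response element, Th and Slc18a2, were among the 6 that were lower in all MPH arrays, as were Slc6a3 and Slc10a4, in which none of these letters were found. A match is a string of letters and not a measured binding site.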

How the data were processed

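Substantia nigra RNA of mice given MPH (3 arrays at each of 2 doses) or saline (3 arrays) was analysed from the deposited table of log2 intensities, which the authors summarized by Robust Multichip Average (version not given in the sources used here). Their methods also name ComBat for the batch of 3 replicates, with no word on its use in the deposited table. The variance between replicate numbers was below that of unrelated arrays (median F ratio 0.073, against 0.828 for the F distribution), and same-numbered arrays deviated in opposite directions (correlations −0.626 to −0.132 over 9 pairs). Replicate numbers were read from the array titles. That arrays with the same number shared a batch is an assumption, which neither the labels nor the methods state.

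The 45037 probe sets that are not controls (45141 less 104) entered a limma fit (version 3.58.1, R 4.3.3) with the group and the replicate number as terms, and p-values were adjusted by Benjamini-Hochberg over all of them at 0.05. The fit was tested on simulated data. Single genes were compared by exact two-sided permutation (SciPy 1.17.1), over 84 divisions of 6 MPH against 3 saline arrays. Another version exchanged the saline label only within replicate numbers. All permutation p-values are unadjusted, and the members were chosen with earlier results known. In the plots (matplotlib 3.10.9) and counts, the probe set with the highest mean stands for a gene. Gene symbols came from the platform annotation (28898 probe sets with 1 gene, 551 with several, 15588 with none), and sequences from RefSeq for 9 of 9 genes.

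All 9 members are named. Of the pathway and marker lists, up to 3 genes with the smallest p, the number passing in each direction and the median were taken, with further genes named for their known role. The members and lists were chosen with earlier results of these data known. Alternatives were no block, only the groups compared, an intensity trend with robust variances, array weights, median centring, quantile normalization repeated, a minimum mean of 5, other thresholds, averaging a gene's probe sets and each array left out. Leaving out 10 mg/kg replicate 1 and saline replicate 2 together was chosen after seeing the data. The number of arrays limits the precision.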

Additional observations from a re-analysis of the deposited data

How the results depend on the processing

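Without the replicate block, 4, 3 and 6 member probe sets (3, 2 and 5 genes) passed an adjusted p of 0.05 in limma (1 mg/kg arrays, 10 mg/kg arrays and both MPH groups, each against saline), of 54, 115 and 207 probe sets in all, where 0 did with the block. With an intensity trend and robust variances, 2, 1 and 3 probe sets passed, among them 1 member probe set over both MPH groups (Th, adjusted p = 0.0413), and at a threshold of 0.1 on the adjusted p 1 probe set did over both. With each array left out in turn, 0 to 1 probe sets passed in each comparison with saline and 0 member probe sets, and 6 to 7 (1 mg/kg), 6 to 7 (10 mg/kg) and 6 to 8 (both) member probe sets were lower at an unadjusted p of 0.05. Without 10 mg/kg replicate 1 and saline replicate 2 together, these were 6, 5 and 6, and 1 probe set passed over both MPH groups. The differences of Th, Ddc, Gch1, Slc6a3, Slc18a2, Slc10a4 and Qdpr against saline kept their sign under every alternative run.

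The shifts within an array for each dose group alone against saline, given without a test, were 0.43 and 0.30 for Slc6a3 minus Th, 0.16 and 0.11 for Slc6a3 minus Ddc, and 0.29 and 0.28 for Slc6a3 minus Slc10a4 (1 mg/kg arrays, then 10 mg/kg arrays). A replicate block leaves the shifts of 0.36 (Th), 0.14 (Ddc) and 0.29 (Slc10a4) as they are. With each array left out they were 0.32 to 0.39 (Th), 0.12 to 0.15 (Ddc) and 0.24 to 0.32 (Slc10a4). Averaging the probe sets of a gene gave 0.43 for Gch1 and turned the shift of Ddc to −0.0671, since the second Ddc probe set lies at background.

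Values close to 0 changed sign. Against saline in the 10 mg/kg arrays, Spr was −0.0142 after median centring and −0.0676 without the 2 arrays named, and Pts 0.0568 without them (0.0238 over both MPH groups). The difference of means of Spr was 0.000867 for that group. Between the doses, array weights gave 0.00325 for Slc6a3, 0.0136 for Qdpr and 0.0151 for Pts, and leaving out those 2 arrays 0.0513, 0.14 and 0.0661. With each array left out, the ranges against saline were −0.10 to 0.0153 for Pts and −0.19 to 0.0157 for Spr (1 mg/kg), −0.12 to 0.0278 for Pts and −0.10 to 0.0819 for Spr (10 mg/kg), and −0.14 to 0.0398 for Spr over both (−0.11 to 0.0283 for its difference of means). Between the doses they were −0.12 to 0.0384 for Slc6a3, −0.19 to 0.13 for Qdpr, −0.0895 to 0.0603 for Pts, −0.0349 to 0.0678 for Ddc, −0.11 to 0.0343 for Slc10a4 and −0.0148 to 0.15 for Spr. The causes were not tested. The alternative with only the groups compared does not apply to the mean of both groups.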
